A study of Homo sapiens with 6 samples.

Results

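Cells switch between an epithelial and a mesenchymal state through a small set of mutually opposed regulators, and 10 of these genes are described here in HCT116 cells, an established line of human colorectal cancer cells. They are the repressor ZEB1, the grainyhead-like activators GRHL1, GRHL2 and GRHL3, the zinc finger factors OVOL1 and OVOL2, the splicing regulators ESRP1 and ESRP2, the adhesion protein E-cadherin (CDH1) and the intermediate filament protein vimentin (VIM). The genes were selected by symbol with the difference between the groups below already in view, so the values of that contrast chose them and their differences are given as a description, without a p. Each of the 10 symbols matches 1 of the 58395 Ensembl genes listed, and 10 of 10 hold enough reads to be tested, among 15566 tested genes.

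The study asks what HCT116 cells express when STBD1, a glycogen-binding protein that links glycogen to autophagy, is reduced. The shControl group holds 3 biological replicates with a non-target hairpin, and the shSTBD1 group holds 3 with a hairpin against STBD1. All cells carry a lentiviral hairpin and are drug-selected after infection, so the groups share both. Each group has 1 hairpin, so within these libraries an effect of the hairpin sequence and an effect of less STBD1 cannot be told apart. The study also reports RNA of shSTBD1 cells given a hairpin-resistant STBD1, which is not among these libraries.

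In epithelial cells, E-cadherin holds neighbouring cells together and is anchored to the cytoskeleton by catenins. ZEB1 binds E-box motifs in the promoters of CDH1 and other epithelial genes and represses them, while GRHL2 and the OVOL factors repress ZEB1 in return. ESRP1 and ESRP2 bind pre-mRNA and favor the epithelial splice forms of receptors and adhesion proteins, and vimentin is a filament protein typical of mesenchymal cells that some carcinoma cells also make.

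The promoter sequence of 2 members is shown because ZEB1 and GRHL3 are the regulators with the largest differences in each direction, and because E-boxes are the motif to which ZEB1 binds. RefSeq windows of 300 bases on GRCh38.p14 run from 250 bases before to 50 bases after a start site. They are used here for 4 of the 10 genes, with 2 windows for GRHL3, 1 for GRHL1, 1 for VIM and 7 for ZEB1. No window was used for CDH1, GRHL2, OVOL1, OVOL2, ESRP1 or ESRP2, which does not show that RefSeq lacks windows for them. Of each gene's windows, the one with the most E-boxes is shown. Capitals mark the E-box CACCTG or its reverse complement CAGGTG. The GRHL3 window chr1:24319107-24319406, plus strand, holds 2, whose first bases lie at -21 and 10 from the start site. The ZEB1 window chr10:31318966-31319265, plus strand, holds 3, with first bases at -242, -85 and 34.
GRHL3: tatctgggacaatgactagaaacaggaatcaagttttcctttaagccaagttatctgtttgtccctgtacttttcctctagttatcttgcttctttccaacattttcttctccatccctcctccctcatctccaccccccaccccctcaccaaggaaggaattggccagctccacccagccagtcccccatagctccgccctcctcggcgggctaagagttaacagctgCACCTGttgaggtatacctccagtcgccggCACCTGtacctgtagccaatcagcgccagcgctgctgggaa
ZEB1: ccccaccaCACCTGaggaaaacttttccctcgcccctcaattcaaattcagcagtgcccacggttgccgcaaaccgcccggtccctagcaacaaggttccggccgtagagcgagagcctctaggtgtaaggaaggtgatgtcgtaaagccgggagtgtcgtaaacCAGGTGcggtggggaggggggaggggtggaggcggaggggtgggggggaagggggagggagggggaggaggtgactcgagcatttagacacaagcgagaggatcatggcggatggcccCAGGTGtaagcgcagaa

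Of all 35116 RefSeq windows of this length, 20.6% hold 1 or more E-boxes on either strand and 3.49% hold 2 or more. Each window shown holds the most E-boxes of its gene's windows, so it cannot be judged against these shares. A further ZEB1 window holds 1 E-box at -57, and the other 5 ZEB1 windows, the second GRHL3 window and the windows of GRHL1 and VIM hold none. Both strands were also searched for the grainyhead motif AACCGGTT, which 0.134% of all windows hold and none of the 11 windows used here. The OVOL core CCGTTA was searched in the same way, and 3.07% of all windows hold it, as does 1 ZEB1 window. The 3 motifs do not overlap in the 2 windows shown, in which the E-box alone is found. These matches describe letters, not bound sites.

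Libraries hold between 17689097 and 21668274 expected counts. STBD1 (ENSG00000118804), the targeted gene, is at 16.2, 15.7 and 14.4 CPM (the usual count unit of edgeR, the gene's count relative to the TMM-scaled total of the library) in shControl and at 11.6, 9.06 and 9.18 in shSTBD1, a log2 fold change of -0.64 with a standard error (SE) of 0.098. Its groups do not overlap, and the gene is still read in every shSTBD1 library. Of the epithelial markers of the colon, KRT8, KRT18, EPCAM and CDX2 are present, CDX1 is at 0 in every library, and VIL1, CDH17, LGALS4 and GPA33 are each at most 0.312 CPM. Summed over the 10 colon markers, of which 5 are tested, the level is 2601 to 2820 CPM in shControl and 3062 to 3131 in shSTBD1. Most of it is KRT8 (mean 1691 CPM in shControl, 1971 in shSTBD1) and KRT18 (767 and 880). The log2 fold changes of EPCAM (0.04, SE 0.031), CDX2 (-0.07, SE 0.094) and KRT20 (0.66, SE 0.230) do not pass an adjusted p under 0.05 in edgeR's test. The fibroblast markers sum to between 31.3 and 40.9 CPM over all libraries, nearly all of it COL1A1, with LUM at 0. The leukocyte markers sum to 8.86 to 10.7 CPM in shControl and 13.5 to 14.3 in shSTBD1, nearly all of it CD68, a lysosomal protein, with PTPRC and CD3E at 0 in every library.

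Over all tested genes, 15.8% pass an adjusted p under 0.05 in edgeR's quasi-likelihood test, 8.22% as higher and 7.54% as lower in shSTBD1, and the CPM of the groups does not overlap for 33.6%. Of the 10 regulators and markers, 7 pass as higher, 2 as lower, and 9 do not overlap between the groups. With effective-length offsets GRHL2, GRHL3 and ESRP1 pass, and with limma on log2 TPM GRHL3 does. Since the genes were chosen on this contrast, nothing is read from these counts. Their median log2 fold change is 0.26, against 0.00 for all tested genes. In bulk RNA, a change in the number of cells that express a gene and a change in its RNA per cell cannot be told apart.

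**Figure D1:**
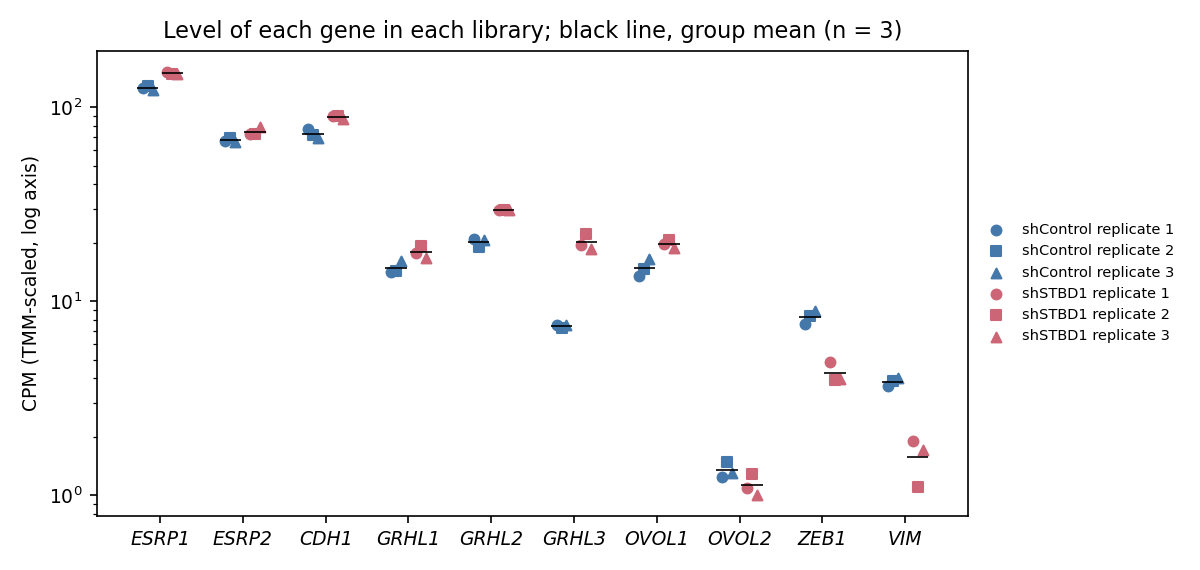
CPM on a log axis (vertical) of each gene (horizontal) in each of the 6 libraries, with color for the group, symbol shape for the replicate number and a black line for the group mean. ZEB1 and VIM lie lower in all 3 shSTBD1 libraries, the ranges of OVOL2 overlap, and the other 7 genes lie higher in all 3 shSTBD1 libraries.

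ZEB1 (ENSG00000148516, GRCh38 chromosome 10 from 31318495 to 31529814, plus strand) is the one transcriptional repressor of epithelial genes among the 10. Its level is 7.64, 8.38 and 8.87 CPM in shControl and 4.87, 3.91 and 3.98 CPM in shSTBD1, from 147, 175 and 157 reads and from 89, 85 and 79 reads. Every shSTBD1 library lies under every shControl library. The mean goes from 8.29 ± 0.62 CPM (SD, n = 3) to 4.25 ± 0.53 CPM (SD, n = 3), 1.96-fold lower, or -0.97 on the log2 scale with an SE of 0.129. On log2(TPM + 1) the difference is -0.57, where TPM, RSEM's transcript abundance, is scaled per length and the added 1 shrinks the difference of a gene this low. ZEB1 does not pass there, on log2(TPM + 0.1) (-0.82) or with effective-length offsets (-0.86).

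The antisense RNA ZEB1-AS1 (chromosome 10 from 31206278 to 31320447, minus strand) overlaps the start of ZEB1. ZEB1-AS1 has 70, 91 and 92 reads in shControl and 113, 104 and 110 in shSTBD1. Its log2 fold change is 0.32 with an SE of 0.156 and does not pass the test, so its direction is not that of ZEB1 but is not distinguished from no change. Whether the counting used strand is not given in the sources used here, so reads of the overlapping stretch may be counted to either gene. The antisense genes of VIM, OVOL1 and GRHL3 are too low to test, with VIM-AS1 at 9, 14 and 4 reads in shControl and 6, 9 and 1 in shSTBD1, and GRHL3-AS1 at 0 in every library.

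Vimentin, the mesenchymal filament gene (VIM, ENSG00000026025, chromosome 10 from 17228241 to 17237593, plus strand), is low in HCT116 cells. It is at 3.64, 3.88 and 4.01 CPM in shControl, from 70, 81 and 71 reads, and at 1.91, 1.10 and 1.71 CPM in shSTBD1, from 35, 24 and 34 reads. The groups do not overlap, and the shSTBD1 libraries differ more among themselves than the shControl libraries do. The mean goes from 3.84 ± 0.19 to 1.58 ± 0.42 CPM (SD, n = 3 each), 2.45-fold lower, or -1.30 on the log2 scale with an SE of 0.211. On log2(TPM + 1) the difference is -0.85, and VIM does not pass there, on log2(TPM + 0.1) (-1.20) or with effective-length offsets (-1.20).

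The grainyhead-like factors are activators of epithelial genes, and GRHL3 has the largest difference of the 10 genes. GRHL3 (ENSG00000158055, chromosome 1 from 24199558 to 24364482, plus strand) is at 7.53, 7.23 and 7.51 CPM in shControl and at 19.5, 22.2 and 18.6 CPM in shSTBD1. The lowest shSTBD1 library is above the highest shControl library by more than the spread of either group. The mean goes from 7.42 ± 0.167 to 20.1 ± 1.87 CPM (SD, n = 3 each), 2.71-fold higher, or 1.44 on the log2 scale with an SE of 0.090.

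GRHL2, which sustains CDH1 and other junction genes (ENSG00000083307, chromosome 8 from 101492439 to 101669726, plus strand), is at 20.9, 19.0 and 20.7 CPM in shControl and at 29.5, 29.5 and 29.3 CPM in shSTBD1. The log2 fold change is 0.54 with an SE of 0.060, or 1.46-fold, and the groups are well apart. GRHL1 (ENSG00000134317, chromosome 2 from 9951693 to 10002277, plus strand), a factor of the same family that acts on desmosome genes, is at 14.1, 14.4 and 16.2 CPM in shControl and at 17.6, 19.3 and 16.7 CPM in shSTBD1. Here the highest shControl library comes close to the lowest shSTBD1 library, and the log2 fold change is 0.27 with an SE of 0.080. GRHL1 passes in 8 of 16 alternative settings. It does not pass with DESeq2 or without shControl replicate 1 (0.23) or 2 (0.25) or without shSTBD1 replicate 1 (0.28) or 2 (0.21), nor with offsets for the effective length, where the value is 0.45.

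Of the OVOL repressors, which hold cells in the epithelial state, OVOL1 (ENSG00000172818, chromosome 11 from 65787063 to 65797214, plus strand) is at 13.6, 14.6 and 16.4 CPM in shControl and at 19.7, 20.7 and 18.8 CPM in shSTBD1. The groups do not overlap, and the log2 fold change is 0.41 with an SE of 0.079. OVOL2 (ENSG00000125850, chromosome 20 from 17956979 to 18059188, minus strand) is nearly absent, at 1.25, 1.48 and 1.3 CPM in shControl and at 1.09, 1.29 and 1.01 CPM in shSTBD1, which is 20 to 31 reads per library. Its groups overlap, its log2 fold change is -0.25 with an SE of 0.263, and it does not pass in any of the 16 alternative settings. A difference of the size seen for OVOL1 would be under 2 SEs of OVOL2, so it is not detectable at this depth.

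The splicing regulators are the most abundant of the 10 genes per length, in TPM, while in CPM CDH1 is above ESRP2. ESRP1 (ENSG00000104413, chromosome 8 from 94641074 to 94707466, plus strand) is at 125, 128 and 122 CPM in shControl and at 152, 149 and 149 CPM in shSTBD1, a log2 fold change of 0.26 with an SE of 0.033, and the groups are well apart. ESRP2 (ENSG00000103067, chromosome 16 from 68229033 to 68238102, minus strand), which shares most targets of ESRP1, is at 66.6, 69.6 and 66.1 CPM in shControl and at 72.7, 72.7 and 79.1 CPM in shSTBD1, a log2 fold change of 0.15 with an SE of 0.044. These CPM do not overlap between the groups. In TPM, which divides by the length of the transcripts, ESRP2 is at 31.3 ± 2.14 in shControl and 31.3 ± 1.51 in shSTBD1 (SD, n = 3 each), its groups overlap, and with effective-length offsets the log2 fold change is 0.01. ESRP2 passes in 8 of 16 alternative settings. It does not pass with DESeq2 (0.15), with effective-length offsets or with limma on log2 TPM. Nor does it pass without shControl replicate 3 (0.14) or without shSTBD1 replicate 1 (0.17), 2 (0.17) or 3 (0.11).

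CDH1, the main adhesion protein of epithelial junctions (ENSG00000039068, chromosome 16 from 68737292 to 68835537, plus strand), is at 77.0, 72.1 and 69.5 CPM in shControl and at 89.5, 90.1 and 87.2 CPM in shSTBD1. Every shSTBD1 library is above every shControl library, and the log2 fold change is 0.29 with an SE of 0.042, or 1.22-fold. The ratio of CDH1 to VIM in TPM is 6.88, 6.52 and 4.47 in shControl and 12.4, 33.4 and 12.4 in shSTBD1. The high value of shSTBD1 replicate 2 comes with the lowest VIM level, and the ratio does not overlap between the groups without that library either.

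**Figure D2:**
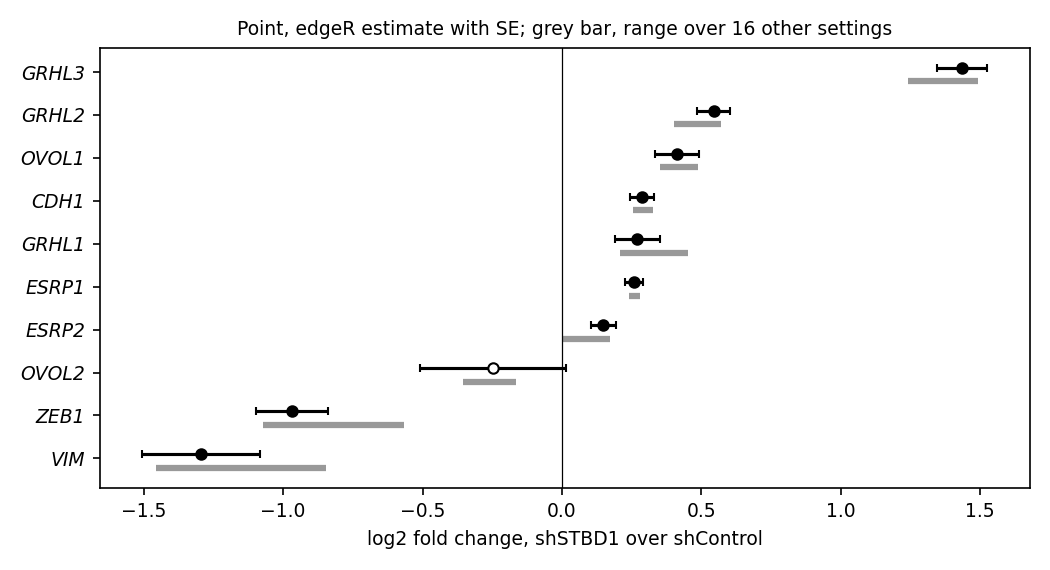
Log2 fold change of shSTBD1 over shControl (horizontal) for each gene (vertical), as a point with its SE and as a grey bar for the range over 16 alternative settings. GRHL3 at 1.44 and VIM at -1.30 are farthest from 0, no bar crosses 0, and the bar of ESRP2 begins at 0.00. The open point, OVOL2, does not pass an adjusted p under 0.05 in edgeR's test.

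Compared per length in TPM, the order of the levels in shControl is ESRP1 (47.6), ESRP2 (31.3), CDH1 (20.8), OVOL1 (6.45), GRHL1 (5.59), GRHL2 (4.95), VIM (3.56), GRHL3 (3.28), ZEB1 (2.58) and OVOL2 (1.28). The neighbours OVOL1, GRHL1 and GRHL2 overlap in this order, as do VIM, GRHL3 and ZEB1. In shSTBD1, GRHL3 at 9.14 TPM comes next after CDH1, in overlap with OVOL1 at 8.61. GRHL1 at 7.56 overlaps GRHL3, OVOL1 and also GRHL2 at 6.86. VIM at 1.60, ZEB1 at 1.39 and OVOL2 at 1.01 TPM are the lowest, and ZEB1 does not overlap OVOL2. Thus the grainyhead-like factor of lowest mean TPM in shControl has the highest mean TPM in shSTBD1, where its range overlaps that of GRHL1. The GRHL3 to GRHL2 ratio of TPM is 0.664 ± 0.041 in shControl and 1.33 ± 0.146 in shSTBD1 (SD, n = 3 each). In CPM, GRHL2 stays above GRHL3 in shSTBD1, with means of 29.4 and 20.1. The ESRP1 to ESRP2 ratio of TPM goes from 1.52 ± 0.042 to 1.82 ± 0.129.

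Genes with a pattern like ZEB1 over the 6 libraries, by Pearson's r of log2 CPM among 14062 genes of at least 1 CPM on average, are ADGRA3 (r = 0.999), NR2F1 (0.997), NECTIN3 (0.997), BRAP (0.997) and EREG (0.996). For GRHL3 they are CABIN1 (0.999), ARHGAP12 (0.999), FSD1 (0.998), ARL2BP (0.996) and ST6GALNAC2 (0.996). They were picked as the highest r among these genes, and r does not depend on the size of a difference. The ZEB1 matches have log2 fold changes from -0.34 (NR2F1) to -0.12 (BRAP), against -0.97 for ZEB1. Those of GRHL3 run from 0.21 (ARHGAP12) to 1.24 (ARL2BP), against 1.44 for GRHL3. With 6 points in 2 groups, r describes a shared direction between the groups in the same libraries. None of these 10 like genes is among the regulators described here.

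The lists that follow were chosen with earlier results of these data known, so their counts and adjusted p are a description. Of 13 other transcription factors of the epithelial-mesenchymal transition, 7 hold enough reads to be tested and 1 passes. Over all tested genes 15.8% pass, so this count is no result about these factors. The 1 is SNAI1, a zinc finger repressor of CDH1, with a log2 fold change of 0.28 (edgeR adjusted p = 0.0242). SNAI1 goes from 11.2 ± 0.457 to 13.7 ± 0.470 CPM (SD, n = 3 each). Its direction is opposite to that of ZEB1, its groups do not overlap, and it passes in 9 of 16 alternative settings. SNAI1 does not pass with DESeq2, with effective-length offsets or with limma on log2 TPM. Nor does it pass without shControl replicate 3 or shSTBD1 replicate 2 or 3. SNAI2, SNAI3, TWIST1, TCF3 and KLF8 do not pass, with SNAI2 at -0.46 (SE 0.289) and SNAI3 at 0.26 (SE 0.171). ZEB2, the close relative of ZEB1, has a read in 1 library alone, and TWIST2 and GSC are at 0 in every library.

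Of 15 mesenchymal genes, 8 are tested, 2 pass as lower and none as higher, with a median log2 fold change of -0.06. Over all tested genes 7.54% pass as lower and 8.22% as higher. S100A4, a calcium-binding protein of motile cells, fell from 84.6, 95.6 and 90.3 to 68.8, 71.7 and 72.7 CPM, a log2 fold change of -0.34 (SE 0.045, edgeR adjusted p = 7.0e-05). ITGA5, the fibronectin receptor subunit, fell by 0.15 on the log2 scale. Fibronectin itself (FN1, -0.14), COL1A1 (0.13) and AXL (-0.01) do not pass. FN1 does pass with effective-length offsets (-0.36) and without shControl replicate 2 (-0.20), but not on log2(TPM + 1) (-0.34). CDH2, the cadherin of mesenchymal cells, has at most 3 reads per library, and CDH11 is at 0 in every library. Without shControl replicate 2, 4 genes pass, 3 as lower and COL1A1 as higher (0.22), and without shSTBD1 replicate 3 there is 1, lower.

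Of 32 epithelial genes, 32 are tested, 16 pass as higher and none as lower, 24 do not overlap between the groups, and the median log2 fold change is 0.14. Over all tested genes 8.22% pass as higher and 33.6% do not overlap. Since this list was also chosen with earlier results known, its counts and adjusted p describe it and do not test it. Among the larger differences are those of the endocytic adaptor EPN3 (0.84, SE 0.081, edgeR adjusted p = 2.4e-06), the epithelial clathrin adaptor subunit AP1M2 (0.62, SE 0.044, edgeR adjusted p = 7.6e-08), the lipid enzyme CDS1 (0.38), the simple keratin KRT19 (0.28) and the tight junction protein TJP3 (0.25). AP1M2 goes from 51.9, 51.7 and 51.4 CPM in shControl to 82.6, 80.4 and 75.3 in shSTBD1, with no overlap. Others that rose are KRT8, KRT18, CLDN4, CLDN7, JUP, MARVELD3, ELF3, PRSS8, RAB25 and CDH3, by 0.12 to 0.22 on the log2 scale. The junction genes are not uniform, since OCLN (0.09) does not pass, nor do CLDN3 (-0.24) and the desmosomal DSP (-0.11), and EPCAM (0.04, SE 0.031) does not pass either. Without shSTBD1 replicate 3, 9 of the epithelial genes pass. DSP passes as lower without the filter on low counts (-0.11) and without shControl replicate 2 (-0.15).

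**Figure D3:**
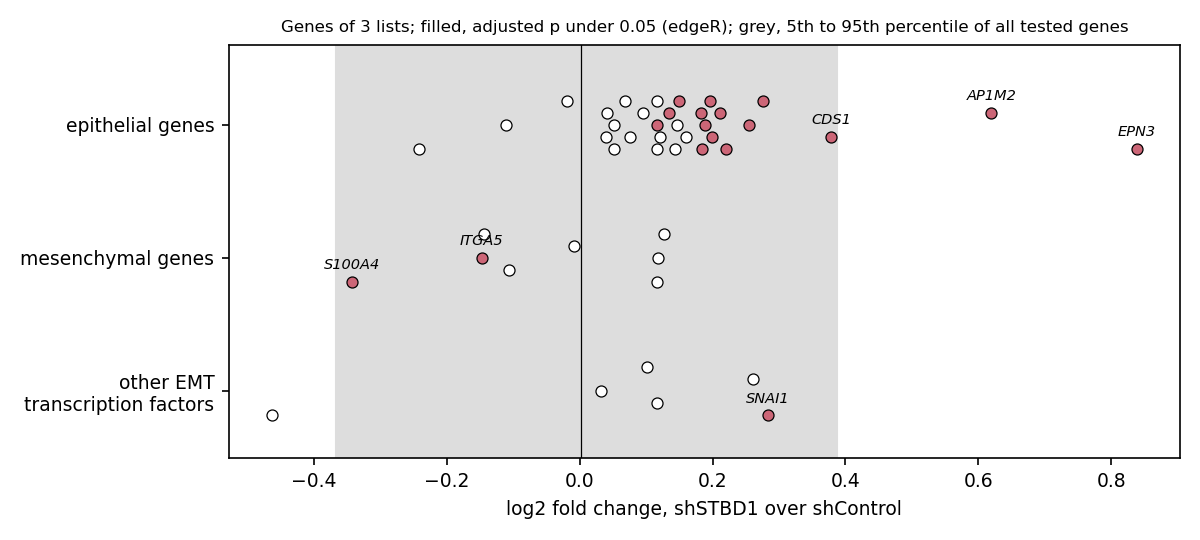
Log2 fold change of shSTBD1 over shControl (horizontal) for tested genes of 3 lists (rows), with filled points for genes that pass an adjusted p under 0.05 and a grey band from the 5th to the 95th percentile of all tested genes, -0.37 to 0.39. EPN3 and AP1M2 lie above the band, SNAI2 is the one point below it and does not pass, and the other points of the epithelial list lie mostly just above 0.

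The files also give the mean transcript length of each gene, which RSEM weights by the abundance of its isoforms. Length enters TPM, so for the 10 genes it is not independent of the values that chose them and is given as a description. It was compared for the 10 genes and for 10 known splicing targets of the ESRP proteins. The groups do not overlap for 5 of these 20 genes, against 9.35% of all tested genes. An exact two-sided permutation test of 3 libraries against 3 cannot give a p below 0.1, so no gene could pass and the lengths are not tested further.

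Of the 10 regulators and markers, GRHL3 and ESRP2 have lengths that do not overlap. GRHL3 is at 2869 bases in each shControl library, which leaves no spread, and at 2773, 2731 and 2748 bases in shSTBD1, so the reads of shSTBD1 are in part assigned to shorter isoforms. ESRP2 is at 2748, 2687 and 2801 bases in shControl and at 2932, 3000 and 2979 bases in shSTBD1, a difference of 224 bases that goes with its equal TPM. ZEB1 ranges from 3403 to 4699 bases in shControl and from 3200 to 4005 in shSTBD1, and VIM from 1396 to 1615 and from 1212 to 1826, so the lengths of these low genes vary widely within each group.

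Among the ESRP targets, FGFR2, a growth factor receptor with an epithelial and a mesenchymal form, is at 2578, 2828 and 2679 bases in shControl and at 3054, 3033 and 3062 bases in shSTBD1. CTNND1, the p120 catenin that binds E-cadherin, is 194 bases longer in shSTBD1, and ENAH, an actin regulator, is 135 bases shorter. CD44, ARHGEF11, SCRIB, FNIP1, RALGPS2, SLK and MAP3K7 overlap between the groups. A mean length does not say which exon differs, so these values do not show whether the epithelial forms are more common. As for gene level, 2 of the 10 targets pass in edgeR's test, RALGPS2 (0.23) and SLK (0.13), both higher, against 15.8% of all tested genes, which is no result about these targets.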

How the data were processed

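RNA of HCT116 cells was compared between 3 libraries of shControl and 3 of shSTBD1, grouped by their labels. The authors aligned reads to Hg38 with STAR 2.7.1a and Ensembl gene models and ran RSEM 1.3.1. The deposited expected counts are not normalized and sum to 17689097 to 21668274 per library. The deposited TPM values are scaled per length and to an equal sum per library. Beside these, the authors give each gene's mean transcript length, effective length and posterior SD of the count, which is at most 1.93% of the count for the 10 genes.

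Expected counts were rounded, filtered by filterByExpr and scaled by TMM (edgeR 4.0.16, R 4.3.3). edgeR's quasi-likelihood F-test then compared shSTBD1 with shControl without covariates, with Benjamini-Hochberg adjustment over 15566 genes. A call is an adjusted p under 0.05. The study's methods name DESeq2. SEs were derived from the fold change and F. Coordinates are those of GENCODE on GRCh38, and 57754 genes were matched to a symbol. They come from another release than the authors' gene models, so a span can differ from the one counted. The GRHL3 windows lie inside the span given for that gene, not at its start. An exact permutation test of transcript length, two-sided (scipy 1.17.1), could not go below p = 0.1 and is not read. The scripts were tested on simulated data.

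The genes and lists were chosen with earlier results of these data known. Named genes are the 10, STBD1, called genes of the lists, the splicing targets, the antisense genes and, for ZEB1 and GRHL3, the 5 genes of highest r. Genes of the lists named beside these for values that do not pass were chosen after their values were seen, and 2 genes of the lists are counted but not reported here, nor drawn. Alternatives were DESeq2 1.42.0, other scaling, filters and rounding, effective-length offsets, limma 3.58.1 on TPM, the replicate number as a block, and leaving out each library. The biological replicates are labelled as such, with no more said of how they were grown apart.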

Additional observations from a re-analysis of the deposited data

How the results depend on the processing

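Of the 176 log2 fold changes of the 10 genes and STBD1 under 16 alternatives, none changed sign, 142 kept their side of the threshold and 34 no longer passed. With effective-length offsets, 3 of the 10 genes pass, in place of 9, as do 8 epithelial genes in place of 16, 0 other transcription factors in place of 1, and 512 of all genes in place of 2453. With limma on log2(TPM + 1), the numbers are 1 of the 10, 4 epithelial, 1 mesenchymal in place of 2, 0 other factors and 292 of all genes. With 0.1 added, they are 1, 4, 1, 0 and 290. With DESeq2, 7 of the 10, 10 epithelial genes, 0 other factors and 1579 of all genes pass. The cause was not tested. Leaving out 1 library gives 7 to 8 of the 10, 0 to 1 other factors, 1 to 4 mesenchymal genes, 9 to 17 epithelial genes and 1409 (without shSTBD1 replicate 2) to 2577 of all genes. The number of genes whose lengths do not overlap is 5 to 7. Samples of the same replicate number deviate from their group means with r of 0.0708, 0.0676 and -0.0084. For samples of different number, r runs from -0.0741 to 0.0101. With 3 libraries per group these values cannot settle whether the numbers pair the samples. With the replicate block, 9 of the 10 genes pass, as do 2579 of all genes. The 24 to 35 reads of VIM in shSTBD1 and the 20 to 31 of OVOL2 limit their precision.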
